A study of Mus musculus with 4 samples.

Results

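The comparison described here was that of a Mir221/222AdipoKO mouse with a Mir221/222 flox/y mouse, both on standard (STD) chow, by gene expression in epididymal fat. It used the 2 arrays whose titles name STD AdipoKO and STD flox/y, of 4 arrays in all, and the 2 others came from an AdipoKO and a flox/y mouse on high-fat high-sucrose (HFHS) chow. All were male C57BL/6J mice (C57BL/6JJcl in the methods of the study) whose fat was taken at 16 weeks of age, and every mouse carried the floxed Mir221/222 allele on its single X chromosome. The AdipoKO mice also carried an Adipoq-Cre transgene, which deletes the floxed segment in adipocytes, and the flox/y mice did not, so the presence of Cre and the deletion cannot be told apart. The fat was measured whole, so other cells of the tissue kept both microRNAs, and in such bulk RNA fewer cells of a type and less RNA per cell cannot be told apart. The source field of the labels names a different microRNA line and, for some samples, another chow, and the groups were therefore taken from the titles, descriptions and genotypes, which name the same groups. Lep, which encodes the adipocyte hormone leptin, stood at 9.05 and 9.63 on the log2 scale on the STD arrays and at 11.54 and 11.46 on the HFHS arrays. There was 1 mouse per group, so every difference below lies between 2 mice, there is no replicate error, and no test between the groups was possible.

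MicroRNAs are short RNAs that guide a silencing complex to messenger RNAs. Bases 2 to 8 of the mature strand, the seed, pair with sites in the target, which lowers its translation and often its level. Mir221 and Mir222 lie next to each other on the X chromosome and are processed from a shared transcript, and their 3p strands carry the same seed, so they address overlapping sets of messages. The mature sequences are shown because the deletion is meant to remove both microRNAs from the adipocyte. The study states that part of a long non-coding host transcript, Mir221hg, was deleted as well. The sequences come from RefSeq (GRCm38.p6), with the seed in capitals.
mmu-miR-221-3p (chrX:19146307-19146329, minus strand): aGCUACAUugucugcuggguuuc
mmu-miR-222-3p (chrX:19146901-19146923, minus strand): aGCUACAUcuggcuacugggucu
The arrays did not check the deletion. The probe set of Mir221, which reads the precursor, was at 3.64 in STD AdipoKO and 5.09 in STD flox/y, and that of Mir222 was at 3.95 in STD AdipoKO and 5.59 in STD flox/y. All of these values were below the average of the negative control probes of their own array, which is taken here as the background. On the HFHS arrays the same probe sets were also below background, at 4.04 in AdipoKO and 3.74 in flox/y for Mir221 and at 4.08 in AdipoKO and 3.61 in flox/y for Mir222.

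The STD AdipoKO array differed from the STD flox/y array by more genes that were lower than genes that were higher. Of 22180 genes with a probe set of their own, 11148 were measured, that is, their mean log2 value over the 4 arrays was at or above the mean background of 5.77. At least 2-fold higher in STD AdipoKO were 23 measured genes (0.206%), and at least 2-fold lower were 75 (0.673%), counting a gene where at least 1 of the 2 arrays was above its background. At 1.5-fold the counts were 136 genes higher (1.22%) and 287 lower (2.57%). The lower genes were led by transcripts that cells switch on within minutes of a stimulus and by heat shock proteins, and the higher genes by Mid1, Mest, Vnn1, Acta1 and Ddit4. The median log2 ratio of all measured genes was 0.00, with 1% of genes below -0.84 and 1% above 0.61.

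**Figure D1:**
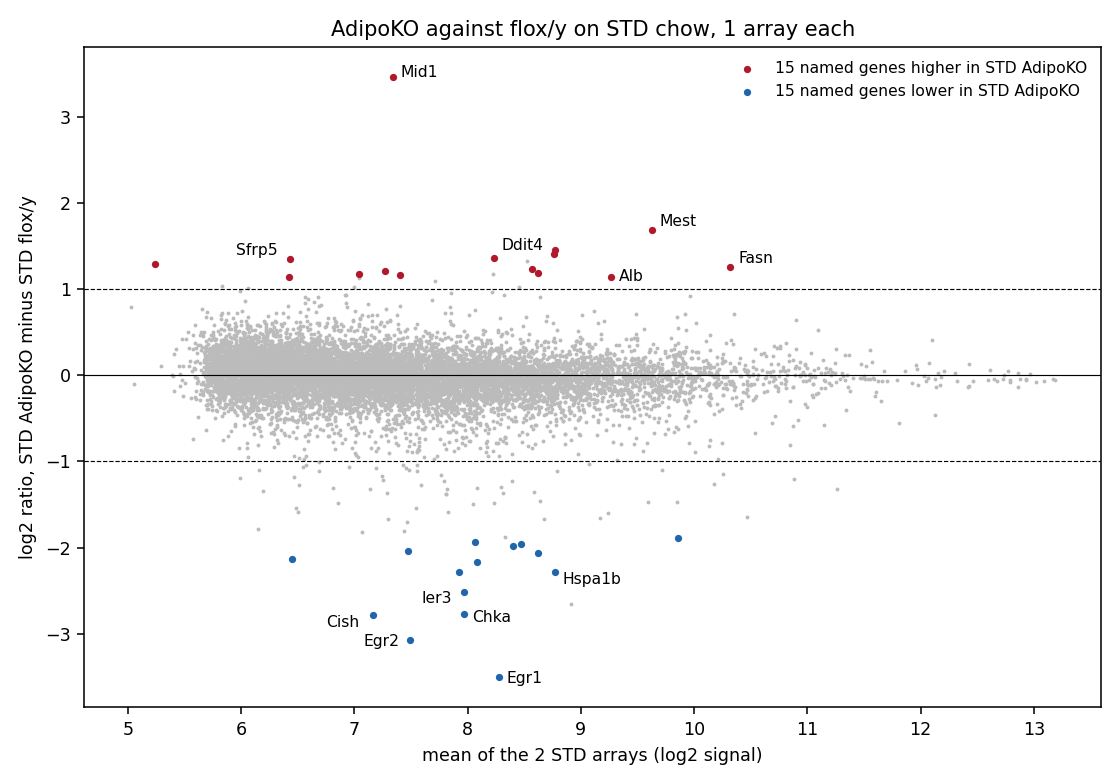
Log2 ratio of STD AdipoKO minus STD flox/y (vertical axis) against the mean log2 signal of both STD arrays (horizontal axis) for 11148 measured genes, 1 array per group. Red points are the 15 named genes with the largest ratios above 0, blue points the 15 with the largest below 0, and dashed lines mark 2-fold; Mid1 stands alone at 3.46, while the lower genes reach -3.51 at Egr1.

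The tissue had the markers of white fat in both mice. All 10 adipocyte markers matched to the array were measured, and their summed linear signal was 31653 in STD AdipoKO and 31597 in STD flox/y. Adipoq, which encodes adiponectin, was at 10.78 in STD AdipoKO and 10.84 in STD flox/y, and Pparg, the master regulator of fat cell differentiation, was at 10.28 in STD AdipoKO and 10.58 in STD flox/y. None of the 13 matched epididymis markers was measured.

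Among the higher genes, Mid1 stood apart from the rest. Mid1, a ubiquitin ligase that binds microtubules, had a value of 9.07 in STD AdipoKO and 5.61 in STD flox/y, which was below background, so it was at least 8.95-fold higher. The STD flox/y array was the low one of the 4, since the HFHS arrays read 9.81 in AdipoKO and 8.76 in flox/y. A second probe set of Mid1 showed no such gap, with 7.66 in STD AdipoKO and 8.09 in STD flox/y, so the difference was seen by 1 of its 2 probe sets. Mid1 lies on the X chromosome (chrX:169685199-169990798, GRCm38), far from Mir221.

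Mest, Sfrp5 and Ppp1r3c, which belong to a list of genes tied to the growth of fat depots, were higher in STD AdipoKO. Mest, an imprinted gene whose level follows the expansion of fat, was at 10.47 in STD AdipoKO and 8.78 in STD flox/y, a 3.23-fold difference. On the HFHS arrays Mest stood at 10.62 in AdipoKO and 10.77 in flox/y, so STD flox/y was the only low array. Sfrp5, a secreted Wnt inhibitor of adipocytes, was at 7.11 in STD AdipoKO and below background at 5.76 in STD flox/y, a difference of at least 2.30-fold, and was at 8.58 and 9.14 on the HFHS arrays of AdipoKO and flox/y. Ppp1r3c, a glycogen-targeting subunit of protein phosphatase 1, was at 6.79 in STD AdipoKO and 6.18 in STD flox/y. Of 13 measured genes of the adipose expansion list, these 3 were at least 1.5-fold higher in STD AdipoKO and none lower, against 1.22% and 2.57% of all measured genes. A ratio below 0 was seen in 4 of the 13, against 5496 of the 11148 measured genes. The median log2 ratio was 0.20, against 0.00 for all measured genes. Lep, a member of the same list, went the other way, with 9.05 in STD AdipoKO and 9.63 in STD flox/y, which is short of 1.5-fold. Zim1, an imprinted zinc finger gene, was 2.28-fold higher, at 9.21 in STD AdipoKO and 8.02 in STD flox/y. Of 14 measured imprinted growth genes, 2 (Mest and Zim1) were at least 2-fold higher, against 0.206% of all measured genes, and none was 2-fold lower. Their median was 0.11, and Cdkn1c, the growth inhibitor p57 of the same list, was 1.62-fold lower, at 6.43 in STD AdipoKO and 7.13 in STD flox/y.

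The other leading higher genes came from several pathways. Vnn1, a pantetheinase that recycles a precursor of coenzyme A, was 2.74-fold higher, at 9.49 in STD AdipoKO and 8.04 in STD flox/y. Acta1, the actin of skeletal muscle, was 2.66-fold higher, at 9.47 in STD AdipoKO and 8.06 in STD flox/y. It was the only skeletal muscle marker to differ by 1.5-fold: the 4 other measured ones had ratios between -0.13 and 0.12, and 9 of 14 matched markers were not measured. Osr1, a transcription factor of connective tissue progenitors, was 2.35-fold higher (9.18 in STD AdipoKO, 7.95 in STD flox/y). Cyp2c55, a cytochrome P450, was 2.32-fold higher (7.88 in STD AdipoKO, 6.67 in STD flox/y). Rasd1, a Ras-like gene induced by glucocorticoids, was 2.27-fold higher (7.63 in STD AdipoKO, 6.45 in STD flox/y), and Arrdc2, of the arrestin-domain family, was 2.24-fold higher (7.98 in STD AdipoKO, 6.82 in STD flox/y). Slc40a1, the iron exporter ferroportin, was at 7.0 in STD AdipoKO and below background at 5.86 in STD flox/y, a difference of at least 2.13-fold.

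Alb and Mup20, genes of the liver, also stood among the 15 largest increases. Alb, serum albumin, was at 9.83 in STD AdipoKO and 8.69 in STD flox/y (2.2-fold higher). Mup20, a major urinary protein, was at 5.89 in STD AdipoKO, close to background, and at 4.59, below background, in STD flox/y, so no fold is given, and genes of its family are near-identical and their probes may share signal. Of 12 measured hepatocyte markers, 11 had a ratio above 0 (91.7%, against 50.6% of all measured genes), with a median of 0.43. At least 1.5-fold higher were 2 (16.7%, against 1.22% of all). Whether a gene was measured rested on the mean of all 4 arrays, and the median level of these markers was 9.87 in HFHS flox/y against 6.49 in STD flox/y. Of 17 matched markers, 7 were below background in STD flox/y and 1 in HFHS flox/y, while only 5 were not measured. Some of the 12 were therefore below background in STD flox/y. The summed linear signal of the 12 was 9473 in STD AdipoKO and 9202 in STD flox/y. Cyp2e1, which fat also expresses, was the largest single part of this sum, at 12.79 in STD AdipoKO and 12.92 in STD flox/y. The HFHS flox/y array read 20811 for the same sum and the HFHS AdipoKO array 7566. The part of hepatocyte transcripts in the other differences was not tested.

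Ddit4 had rank 5 among the increases of all measured genes. Ddit4 (REDD1; chr10:59949675-59951770, GRCm38) encodes a stress-induced inhibitor of mTORC1, the kinase complex that couples insulin and nutrients to protein and lipid synthesis, and target prediction lists it for both microRNAs. It was at 8.92 in STD AdipoKO and 7.55 in STD flox/y, a log2 ratio of 1.37 (2.58-fold higher). The HFHS arrays, from other mice, stood at 8.58 in AdipoKO and 7.66 in flox/y, so both AdipoKO values lay above both flox/y values. The study had picked Ddit4 out of these same arrays, by looking for predicted targets whose AdipoKO value exceeded the flox/y value under each diet. That pattern was therefore set by the choice of the gene and is not a separate finding. By quantitative PCR in HFHS mice, the study found the rise of Ddit4 mRNA to be short of significance. By Western blot it found DDIT4 protein to be significantly higher in HFHS AdipoKO fat. In its reporter assay in cultured preadipocytes, both microRNAs inhibited the untranslated region of Ddit4, with almost no effect once the seed site was mutated. Only 1 probe set reads Ddit4.

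Of the other inhibitors upstream of mTORC1, Sesn2 was past 1.5-fold and the rest named here were not. Sesn2, a sestrin that restrains mTORC1 when leucine is low, was 2.04-fold higher, at 8.96 in STD AdipoKO and 7.94 in STD flox/y, and Sesn1 was at 8.21 in STD AdipoKO and 7.77 in STD flox/y. Castor1, an arginine sensor that also restrains mTORC1, was at 6.52 in STD AdipoKO and 6.05 in STD flox/y. Tsc2 was at 8.33 in STD AdipoKO and 7.98 in STD flox/y, while its partner Tsc1 was at 7.12 in STD AdipoKO and 7.24 in STD flox/y. Sesn3 had 7.11 in STD AdipoKO and 7.30 in STD flox/y. Of the 29 measured genes of this list, which runs through insulin signalling to mTORC1 and its substrates, 2 (Ddit4 and Sesn2) were at least 1.5-fold higher and 1 was lower, against 1.22% and 2.57% of all measured genes. The lower one was Pik3r1, the regulatory subunit of phosphoinositide 3-kinase, at 9.13 in STD AdipoKO and 9.85 in STD flox/y (1.66-fold). The median of the list was 0.02. On HFHS chow Sesn2 read 7.91 in AdipoKO and 8.08 in flox/y, so it was not higher in both AdipoKO mice. Ddit4 was, but the study had chosen it for that pattern. Genes of DNA damage and growth arrest, a list that holds Ddit4 and Sesn2 too, had 4 of 13 measured members at least 1.5-fold higher (30.8%). It had 2 lower (15.4%), against the same 1.22% and 2.57% of all measured genes. The higher ones beside Ddit4 and Sesn2 were Gadd45g (9.84 in STD AdipoKO, 9.12 in STD flox/y) and Gadd45b (7.42 in STD AdipoKO, 6.71 in STD flox/y), and those lower were Btg2 and Mdm2.

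**Figure D2:**
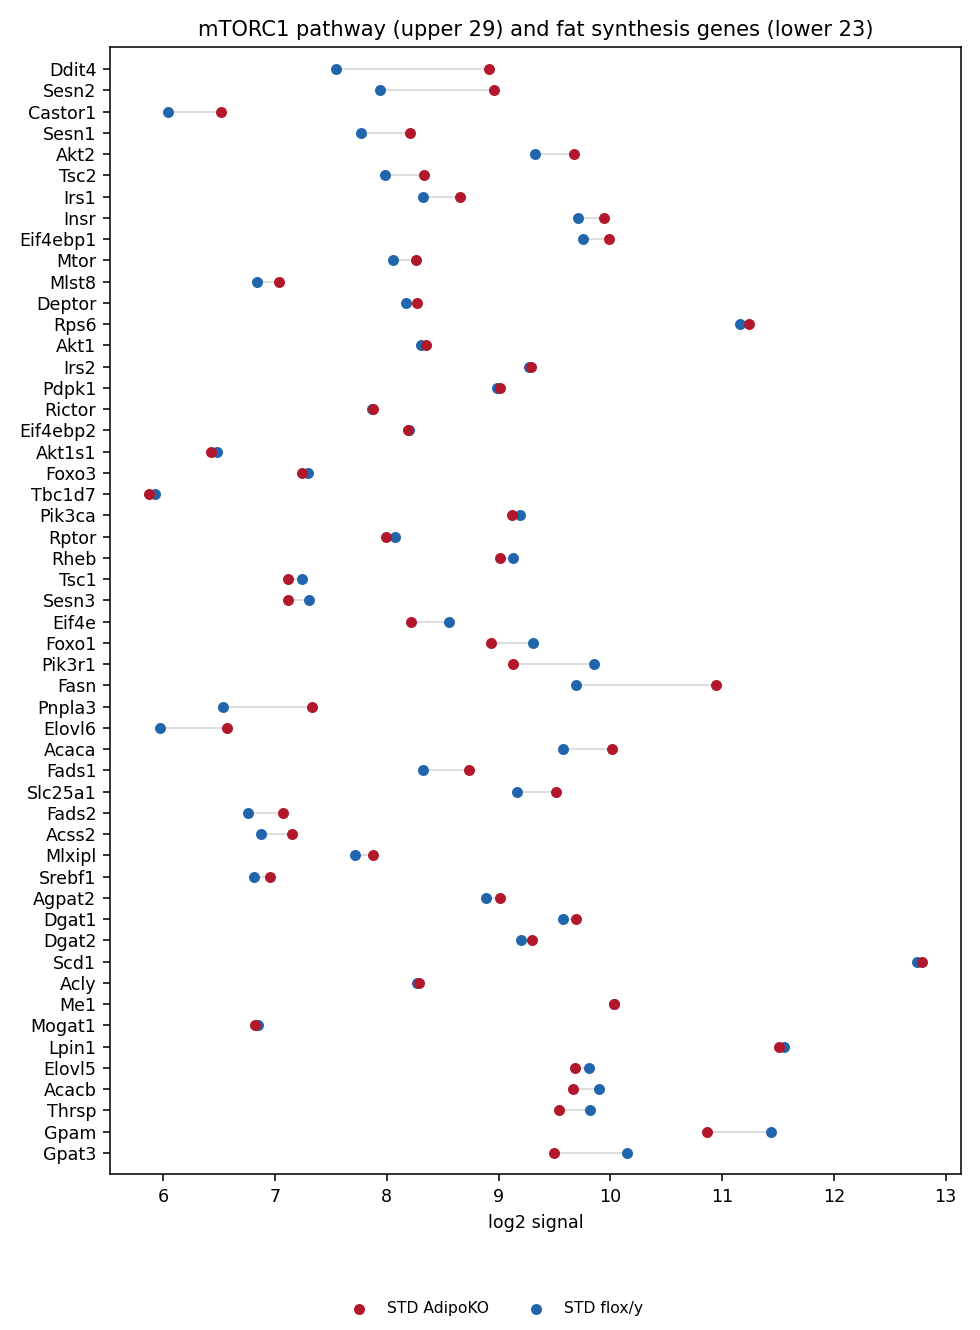
Log2 signal (horizontal axis) of 29 measured genes of mTORC1 signalling (upper rows) and 23 of fat synthesis (lower rows), each group ordered by the ratio, in STD AdipoKO (red) and STD flox/y (blue), 1 array each. Ddit4 and Sesn2 head the upper rows and Fasn the lower ones, at 10.95 in STD AdipoKO and 9.69 in STD flox/y, while most other pairs lie close together.

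Transcripts of a few fat synthesis genes were higher in STD AdipoKO, and those of the pathway were not higher as a block. Fasn, which builds palmitate from malonyl-CoA, was 2.39-fold higher, at 10.95 in STD AdipoKO and 9.69 in STD flox/y, and was 11.63 in AdipoKO and 11.74 in flox/y on HFHS chow. Pnpla3, a lipase and acyltransferase of lipid droplets that is raised by feeding, was 1.74-fold higher (7.33 in STD AdipoKO, 6.53 in STD flox/y), and the fatty acid elongase Elovl6 1.51-fold (6.57 in STD AdipoKO, 5.97 in STD flox/y). Acaca, which makes the malonyl-CoA that Fasn uses, was at 10.01 in STD AdipoKO and 9.58 in STD flox/y, and Scd1, the main desaturase, at 12.79 in STD AdipoKO and 12.75 in STD flox/y. Gpat3, an enzyme of the first step of triglyceride assembly, was 1.57-fold lower, at 9.49 in STD AdipoKO and 10.15 in STD flox/y, but not past 1.5-fold by its second probe set (5.92 in STD AdipoKO, 6.24 in STD flox/y) or by the mean of both, with a log2 ratio of -0.48. Gpam, of the same step, was at 10.86 in STD AdipoKO and 11.44 in STD flox/y. The list of this pathway had 23 measured members with a median of 0.12. Of these, 15 had a ratio above 0 (65.2%, against 50.6% of all measured genes). Past 1.5-fold were 3 upwards (13%, against 1.22% of all) and 1 downwards (4.35%, against 2.57%). The regulators of the pathway, Srebf1 (6.96 in STD AdipoKO, 6.81 in STD flox/y) and Mlxipl (7.87 in STD AdipoKO, 7.72 in STD flox/y), differed by 0.15 each.

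Genes of cholesterol synthesis leaned the same way with small differences. Of 18 measured members, 16 (88.9%) had a ratio above 0, against 50.6% of all measured genes. At least 1.5-fold higher was 1 (5.56%, against 1.22% of all). That gene was Nsdhl, a sterol dehydrogenase, at 7.54 in STD AdipoKO and 6.92 in STD flox/y, and Hmgcs1, an early enzyme of the pathway, was at 10.38 in STD AdipoKO and 9.91 in STD flox/y. The median was 0.16. Among 16 measured genes of fatty acid oxidation and the fasting response, Ucp3, a mitochondrial carrier that rises with fatty acid use, was the only one to differ by 1.5-fold. It was 2.13-fold higher, at 8.26 in STD AdipoKO and 7.17 in STD flox/y, and on HFHS chow it stood at 8.03 in AdipoKO and 7.27 in flox/y. Of 10 measured lipolysis genes, Abhd5, the activator of adipose triglyceride lipase, was 1.73-fold lower (9.19 in STD AdipoKO, 9.98 in STD flox/y), and the other 9 differed by less than 1.5-fold. Respiratory chain genes (19 measured, median 0.08) and thermogenic genes (5 measured, median 0.11) held no member past 1.5-fold, and Ucp1, the uncoupling protein of brown fat, was below background on both arrays, at 4.44 in STD AdipoKO and 4.24 in STD flox/y.

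The lower genes were led by the immediate early response. Immediate early genes are transcribed within minutes of a growth factor, stress or handling stimulus without new protein synthesis, and many encode transcription factors or feedback inhibitors. Of 35 measured members, 22 were lower in STD AdipoKO by 1.5-fold or more and 18 by 2-fold or more, against 2.57% and 0.673% of all measured genes, and Gadd45b alone was 1.5-fold higher. The median log2 ratio of the list was -1.04. The summed linear signal of these genes was 9545 in STD AdipoKO and 18542 in STD flox/y, and it was 11872 in AdipoKO and 8966 in flox/y on HFHS chow, so STD flox/y was the array with the highest sum of the 4. In 32 of the 35 genes STD flox/y had the highest value of the 4 arrays, against 29.4% of all measured genes and 59.6% of those with a ratio below 0.

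Egr1, a zinc finger transcription factor that is the textbook early response gene, had the largest decrease of all measured genes. It was at 6.52 in STD AdipoKO and 10.03 in STD flox/y (11.4-fold lower), with 8.17 in AdipoKO and 6.75 in flox/y on HFHS chow. Its relatives were low on the same array. Egr2 was at 5.95 in STD AdipoKO, just above background, and 9.03 in STD flox/y (8.41-fold lower). Egr3 was below background at 5.38 in STD AdipoKO and at 7.51 in STD flox/y, at least 3.29-fold lower. Egr4 was below background on both. Ier3, which limits signalling through NF-kappaB, was 5.70-fold lower, at 6.71 in STD AdipoKO and 9.23 in STD flox/y. Trib1, a pseudokinase that brings substrates to a ubiquitin ligase, was 4.85-fold lower (6.78 in STD AdipoKO, 9.06 in STD flox/y), and Socs3, the inhibitor of cytokine receptor signalling, 4.10-fold (6.45 in STD AdipoKO, 8.49 in STD flox/y). The AP-1 genes differed less: Fos was at 6.6 in STD AdipoKO and 7.97 in STD flox/y, Fosb at 6.12 in STD AdipoKO and 7.60 in STD flox/y, and Jun at 8.80 in STD AdipoKO and 9.09 in STD flox/y. Gadd45b was the 1 member past 1.5-fold higher, and Nr4a3, a nuclear receptor, was alike on the STD arrays at 9.05 in STD AdipoKO and 9.08 in STD flox/y.

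Cish, Chka, Rnf19b and Nabp1, which no list holds, and the clock gene Nfil3 were also among the 15 largest decreases. Cish, a cytokine-induced SH2 protein of the SOCS family, was below background at 5.77 in STD AdipoKO and at 8.56 in STD flox/y, at least 6.80-fold lower, and its second probe set was lower too (5.86 in STD AdipoKO, 7.05 in STD flox/y). Chka, choline kinase alpha of phosphatidylcholine synthesis, was 6.82-fold lower (6.58 in STD AdipoKO, 9.35 in STD flox/y). Its second probe set was below background on both arrays (4.77 in STD AdipoKO, 5.58 in STD flox/y), and the mean of both gave a log2 ratio of -1.79 for Chka. The next were Rnf19b, a ubiquitin ligase (7.41 in STD AdipoKO, 9.39 in STD flox/y), and Nabp1, a single-stranded DNA binding protein (8.91 in STD AdipoKO, 10.80 in STD flox/y). Both were read higher in STD flox/y than on each of the 3 other arrays. Nfil3, a basic leucine zipper repressor that links the clock to metabolism, was 3.84-fold lower (7.09 in STD AdipoKO, 9.03 in STD flox/y). Nfil3 was the 1 clock gene past 2-fold. Of 14 measured clock genes, 1 was higher at 1.5-fold (7.14%) and 3 lower (21.4%), against 1.22% and 2.57% of all measured genes. Their median was -0.03, and the core factors Arntl (8.35 in STD AdipoKO, 8.55 in STD flox/y) and Per1 (9.46 in STD AdipoKO, 9.37 in STD flox/y) were close.

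Heat shock proteins were the other group among the leading decreases. These chaperones refold damaged proteins, and the transcription factor HSF1 induces most of them. Of 15 measured members, 9 were lower in STD AdipoKO by 1.5-fold or more, 5 of them by 2-fold or more, and 1 was higher by 1.5-fold, against 2.57%, 0.673% and 1.22% of all measured genes, with a median of -0.63. Hspa1b, an inducible HSP70, was 4.86-fold lower, at 7.63 in STD AdipoKO and 9.91 in STD flox/y, and Hspa1a, its near-identical neighbour whose probes may share signal, 4.18-fold (7.59 in STD AdipoKO, 9.65 in STD flox/y). Their partner Dnajb1, an HSP40, was 4.49-fold lower (7.0 in STD AdipoKO, 9.16 in STD flox/y) and Hsph1, an HSP110, 3.88-fold (7.49 in STD AdipoKO, 9.45 in STD flox/y). Cryab, the small chaperone alpha-B crystallin, was the member that was higher, at 8.62 in STD AdipoKO and 7.95 in STD flox/y. On HFHS chow Hspa1b was also lower in the AdipoKO mouse, at 7.01 against 9.04 in flox/y, as were Hspa1a (7.41 in AdipoKO, 8.72 in flox/y) and Hsph1 (7.64 in AdipoKO, 8.74 in flox/y). Dnajb1 was not, with 7.87 in AdipoKO and 7.24 in flox/y. Genes of endoplasmic reticulum stress and the ATF4 response had a median of -0.01. Of 21 measured members, 1 was higher and 1 lower at 1.5-fold (4.76% each, against 1.22% and 2.57% of all measured genes). The higher one had a log2 ratio of 1.03. The lower one was Xbp1, a transcription factor of the unfolded protein response, at 9.72 in STD AdipoKO and 10.54 in STD flox/y.

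**Figure D3:**
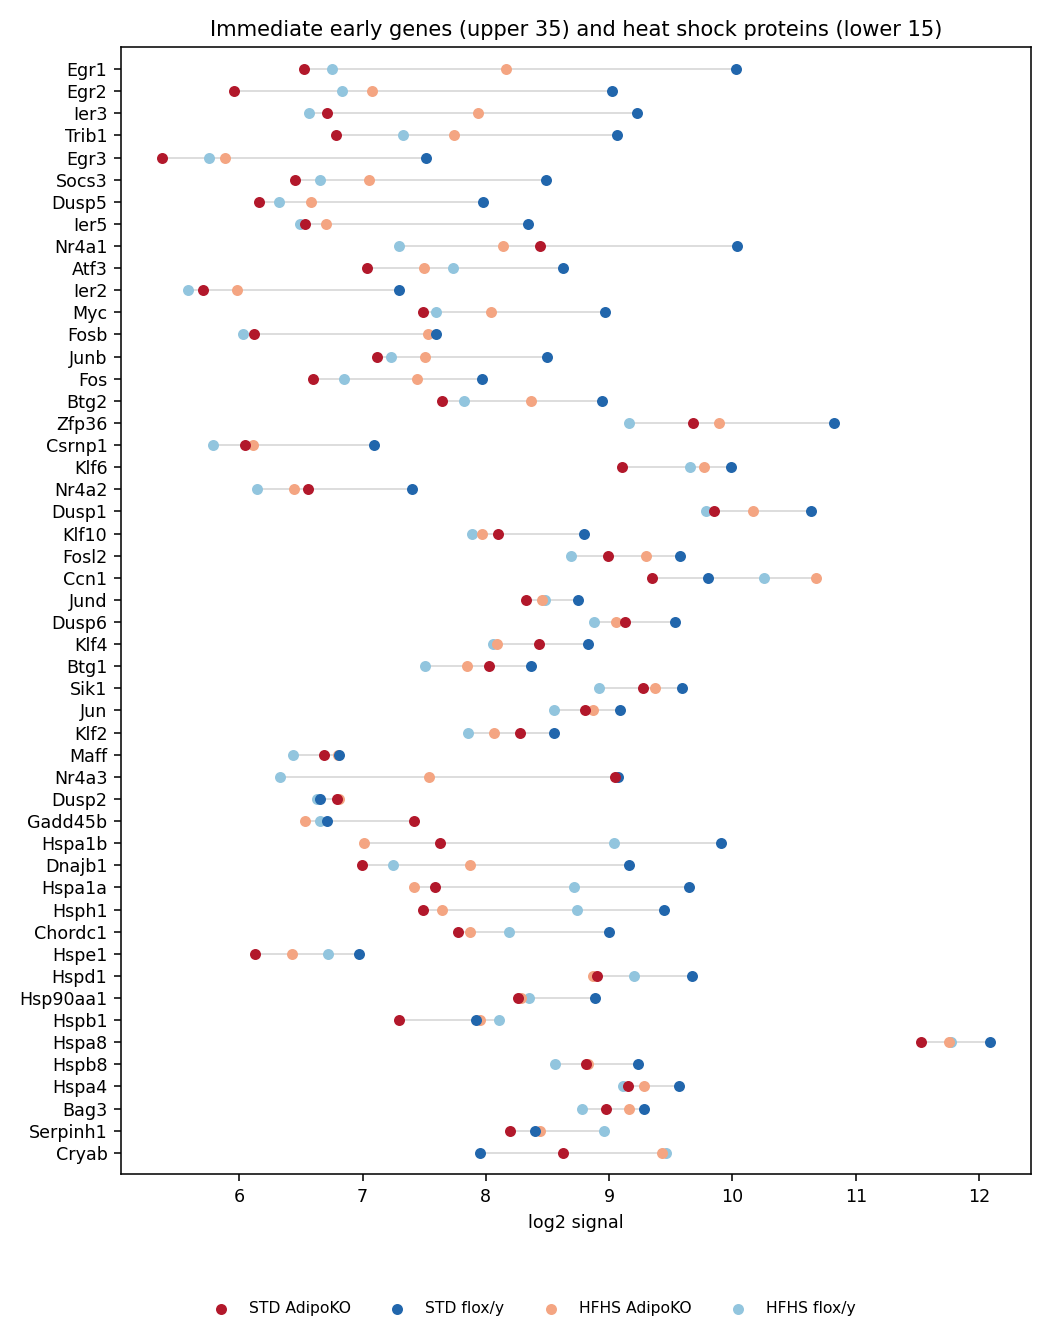
Log2 signal (horizontal axis) of 35 measured immediate early genes (upper rows) and 15 heat shock proteins (lower rows), ordered by the STD ratio within each group, in STD AdipoKO (red), STD flox/y (blue), HFHS AdipoKO (orange) and HFHS flox/y (light blue), 1 array each. STD flox/y is the rightmost point in 32 of the 35 upper rows and 12 of the 15 lower rows, and STD AdipoKO the leftmost in 14 and 8.

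The promoters of both groups were searched for elements known to drive them. The windows ran from 250 bases before to 50 after each start in RefSeq (GRCm38.p6), and both strands were read. A CArG box, the binding element of serum response factor that starts many immediate early genes, was found in 1.81% of the 27025 genes with a window. It was in 3 of 29 immediate early genes, in 4 of the 55 genes at least 2-fold lower that have a window (7.27%), and in 1 of 15 at least 2-fold higher (6.67%). The sets overlap: the 4 lower genes were the 3 immediate early genes (Dusp5, Egr2 and Zfp36) and Rnd3. The GAANNTTC core of the heat shock element was found in 9.04% of all genes and in 10 of 13 heat shock genes. It was in 9 of the 55 lower genes (16.4%), 0 of the 15 higher ones and 2 of the 29 immediate early genes (6.9%). The 9 lower genes include Chordc1, Hspa1a, Hspa1b and Hsph1, which are also among the 10 heat shock genes. A CArG box was found in 0 of the 13 heat shock genes. A match says only that the letters are in the window. Shown are 1 window each of Egr2 and Zfp36, which encodes an mRNA decay factor (9.68 in STD AdipoKO, 10.83 in STD flox/y), with the CArG box in capitals, and of Hsph1 and Chordc1, a co-chaperone (7.78 in STD AdipoKO, 9.0 in STD flox/y), with each GAANNTTC in capitals.
Egr2 (chr10:67537316-67537615, plus strand): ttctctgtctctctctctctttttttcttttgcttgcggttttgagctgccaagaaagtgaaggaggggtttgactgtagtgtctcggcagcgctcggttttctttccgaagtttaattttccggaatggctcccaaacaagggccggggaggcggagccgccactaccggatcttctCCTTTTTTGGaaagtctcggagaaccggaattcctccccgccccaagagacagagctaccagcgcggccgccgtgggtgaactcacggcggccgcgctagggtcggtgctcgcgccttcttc
Zfp36 (chr7:28379179-28379478, minus strand): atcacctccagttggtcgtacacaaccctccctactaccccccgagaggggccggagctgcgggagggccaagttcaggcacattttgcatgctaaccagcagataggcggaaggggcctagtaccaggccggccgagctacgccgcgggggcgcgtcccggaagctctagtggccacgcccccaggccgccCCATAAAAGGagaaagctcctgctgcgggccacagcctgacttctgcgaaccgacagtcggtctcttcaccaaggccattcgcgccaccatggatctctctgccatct
Hsph1 (chr5:149636266-149636565, minus strand): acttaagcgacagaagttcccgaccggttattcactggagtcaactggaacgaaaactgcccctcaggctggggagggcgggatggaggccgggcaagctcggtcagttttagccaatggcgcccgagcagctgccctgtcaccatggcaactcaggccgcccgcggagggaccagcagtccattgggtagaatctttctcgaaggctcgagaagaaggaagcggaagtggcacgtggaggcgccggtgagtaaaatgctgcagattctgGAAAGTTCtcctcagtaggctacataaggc
Chordc1 (chr9:18292017-18292316, plus strand): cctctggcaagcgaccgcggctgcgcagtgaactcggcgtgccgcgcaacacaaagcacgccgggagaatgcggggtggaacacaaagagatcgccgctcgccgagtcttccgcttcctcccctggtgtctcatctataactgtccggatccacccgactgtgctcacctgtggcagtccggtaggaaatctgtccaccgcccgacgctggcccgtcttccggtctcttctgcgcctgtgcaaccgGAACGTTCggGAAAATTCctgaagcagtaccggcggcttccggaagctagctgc
Egr2 has 5 windows in the table and Hsph1 has 2, and the ones printed are those that hold the match. Neither motif was found in a window of Ddit4, Fasn, Mest or Mid1.

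Inflammatory signals were lower in part. Ccl2, the chemokine that draws monocytes into fat, was 3.26-fold lower, at 6.61 in STD AdipoKO and 8.31 in STD flox/y, and its neighbour Ccl7 3.17-fold (6.47 in STD AdipoKO, 8.13 in STD flox/y). Csf1, the macrophage growth factor, was 1.91-fold lower (7.71 in STD AdipoKO, 8.64 in STD flox/y), and Il33, an alarmin of stromal cells, 1.59-fold (5.92 in STD AdipoKO, 6.6 in STD flox/y). Of 13 measured cytokines and chemokines, 5 were lower by 1.5-fold (2.57% of all measured genes) and 1 was higher (1.22%), with a median of -0.45. That median was -0.06 with no filter on low values, since 12 more, Tnf, Il6 and Il1b among them, were then counted. Cxcl12, the member that was higher, stood at 9.52 in STD AdipoKO and 8.89 in STD flox/y. The macrophage markers themselves had a median of 0.00 over 14 measured genes, with 2 lower at 1.5-fold (Cd14 and the pan-leukocyte gene Ptprc) and a summed linear signal of 5810 in STD AdipoKO and 6407 in STD flox/y. Cd14, the lipopolysaccharide co-receptor, was 2.15-fold lower, at 6.93 in STD AdipoKO and 8.03 in STD flox/y.

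Markers of lipid-associated macrophages, cells that take up lipid around dying adipocytes, all had ratios below 0, against 5496 of the 11148 measured genes. Of 12 measured, 3 were lower by 1.5-fold, 2 of them by 2-fold, against 2.57% and 0.673% of all measured genes, and the median was -0.23. Atp6v0d2, a subunit of the proton pump, was below background at 5.52 in STD AdipoKO and at 6.87 in STD flox/y, at least 2.11-fold lower. Mmp12, the macrophage elastase, was 2.09-fold lower (6.42 in STD AdipoKO, 7.48 in STD flox/y) and Gpnmb, a lysosomal glycoprotein, 1.77-fold (7.16 in STD AdipoKO, 7.98 in STD flox/y). Each was lower in AdipoKO on HFHS chow too: Mmp12 was at 6.30 in AdipoKO and 8.56 in flox/y, Gpnmb at 6.80 in AdipoKO and 8.94 in flox/y, and Atp6v0d2 at 5.49, below background, in AdipoKO and 7.94 in flox/y. Trem2, the receptor that defines these cells, was close, at 6.40 in STD AdipoKO and 6.57 in STD flox/y.

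Keratins of the mesothelium were also lower on the STD AdipoKO array. The mesothelium is the sheet of cells that covers visceral fat. Of 14 measured markers, 13 had a ratio below 0, against 5496 of the 11148 measured genes. The median was -0.29, and the summed linear signal was 3426 in STD AdipoKO and 4177 in STD flox/y. STD flox/y had the highest value of the 4 arrays in 13 of the 14, against 29.4% of all measured genes and 59.6% of those with a ratio below 0. The keratins Krt18 (6.49 in STD AdipoKO, 7.28 in STD flox/y), Krt8 (7.0 in STD AdipoKO, 7.72 in STD flox/y) and Krt19 (5.82 in STD AdipoKO, 6.53 in STD flox/y) were the 3 at least 1.5-fold lower, against 2.57% of all measured genes, and Wt1, a transcription factor of these cells, was at 7.71 in STD AdipoKO and 8.06 in STD flox/y. The part of the mesothelium in the lower immediate early genes was not tested. Smooth muscle and pericyte markers had a median of -0.22 over 13, endothelial markers -0.10 over 14 and fibroblast markers -0.04 over 11, with 1 member of the first lower at 1.5-fold (Cnn1, calponin, at 6.97 in STD AdipoKO and 7.76 in STD flox/y), 1 higher (Kcnj8, a pericyte potassium channel, at 7.63 in STD AdipoKO and 6.99 in STD flox/y) and none of the others. Cpa3, the carboxypeptidase of mast cells, was 2.00-fold lower (6.18 in STD AdipoKO, 7.18 in STD flox/y), while Kit, their receptor for stem cell factor, was at 6.97 in STD AdipoKO and 6.52 in STD flox/y. Of 25 measured matrix genes, 2 were at least 2-fold lower, Mmp12 and Thbs1, against 0.673% of all measured genes. None was 1.5-fold higher, against 1.22% of all. Thbs1, thrombospondin 1, was at 10.60 in STD AdipoKO and 11.93 in STD flox/y, while the collagens Col1a2 (9.20 in STD AdipoKO, 8.97 in STD flox/y) and Col3a1 (9.59 in STD AdipoKO, 9.25 in STD flox/y) lay on the other side.

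Genes of adipocyte identity were close on the STD arrays, with 2 exceptions. Of 20 measured, 2 (10%) were at least 1.5-fold lower and none was higher, against 2.57% and 1.22% of all measured genes. The median was -0.04. Cebpb, an early transcription factor of adipogenesis that stimuli also induce, was 1.80-fold lower (7.69 in STD AdipoKO, 8.53 in STD flox/y), and Gpd1, which makes the glycerol backbone of triglyceride, 1.61-fold (8.65 in STD AdipoKO, 9.33 in STD flox/y). The mean of its 2 probe sets, with a log2 ratio of -0.50 for Gpd1, was short of 1.5-fold. Genes of the glucocorticoid response had a median of -0.12 over 15 measured. Errfi1, a feedback inhibitor of the EGF receptor, was 3.13-fold lower, at 9.64 in STD AdipoKO and 11.29 in STD flox/y, and Klf9, a Krueppel-like transcription factor, 1.68-fold (9.76 in STD AdipoKO, 10.51 in STD flox/y), whereas Ddit4, which glucocorticoids also induce, was higher. Fkbp5, a classic glucocorticoid target, was at 8.04 in STD AdipoKO and 8.49 in STD flox/y. Interferon response and antigen presentation genes (16 measured) had 1 member lower at 1.5-fold, Oasl2, a sensor-like antiviral gene at 6.98 in STD AdipoKO and 7.57 in STD flox/y, and a median of -0.11. Cell cycle genes (11 measured) had none past 1.5-fold and a median of 0.16.

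**Figure D4:**
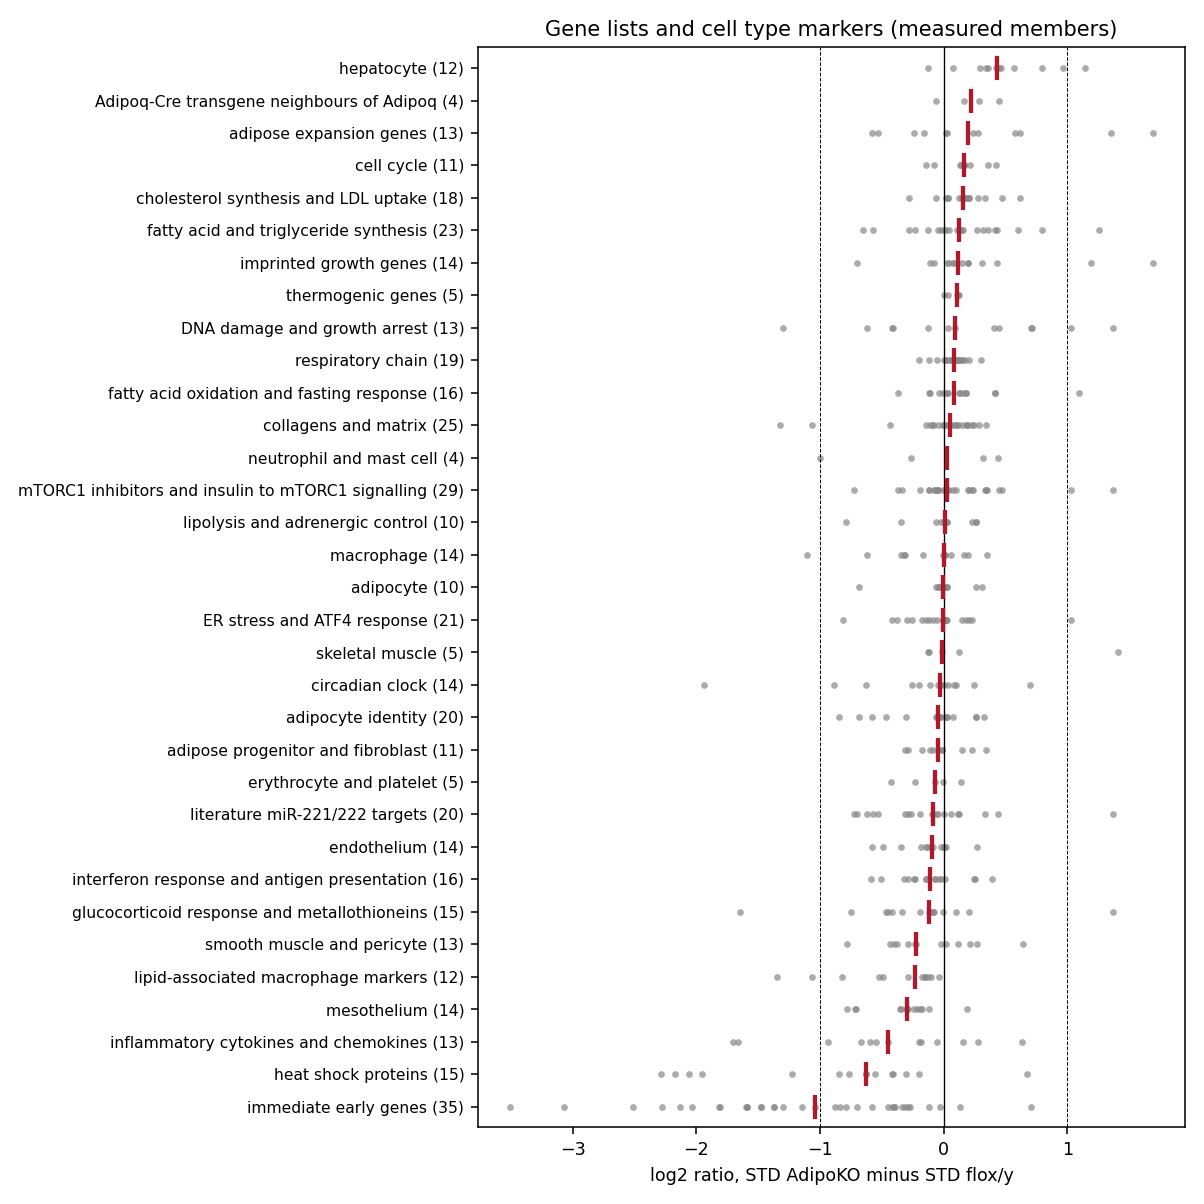
Log2 ratio of STD AdipoKO minus STD flox/y (horizontal axis) for the measured members (grey points, their number in brackets) of each gene list and cell type marker list with at least 4 of them, with the median as a red bar. The solid line marks the median of all measured genes and dashed lines 2-fold; immediate early genes (-1.04) and heat shock proteins (-0.63) lie farthest to the left and hepatocyte markers (0.43) farthest to the right.

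Among the predicted targets of the microRNA pair, more had a ratio below 0 than above it in STD AdipoKO. The list comes from the target prediction of the study. The table read here holds 356 symbols, which is not the count stated in its text. Of these, 302 matched a gene with its own probe set, and 229 were measured. Ddit4, which the study had chosen from these arrays, had the largest ratio of them. Another 3 had a ratio of 1.5-fold or more, which with Ddit4 made 1.75%, against 1.22% of all measured genes. With values below background raised to it, 3 of the 229 (1.31%) were left, against 112 of all measured genes (1%). At least 1.5-fold lower were 12 (5.24%, against 2.57% of all). The median was -0.09 and 31.9% had a ratio above 0, against 0.00 and 50.6% for all measured genes. On HFHS chow the median of the same genes was 0.02. Split by level into 5 classes of like size, all measured genes had median ratios between 0.06 in the dimmest class and -0.04, and the part of the level in the targets' median was not tested.

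**Figure D5:**
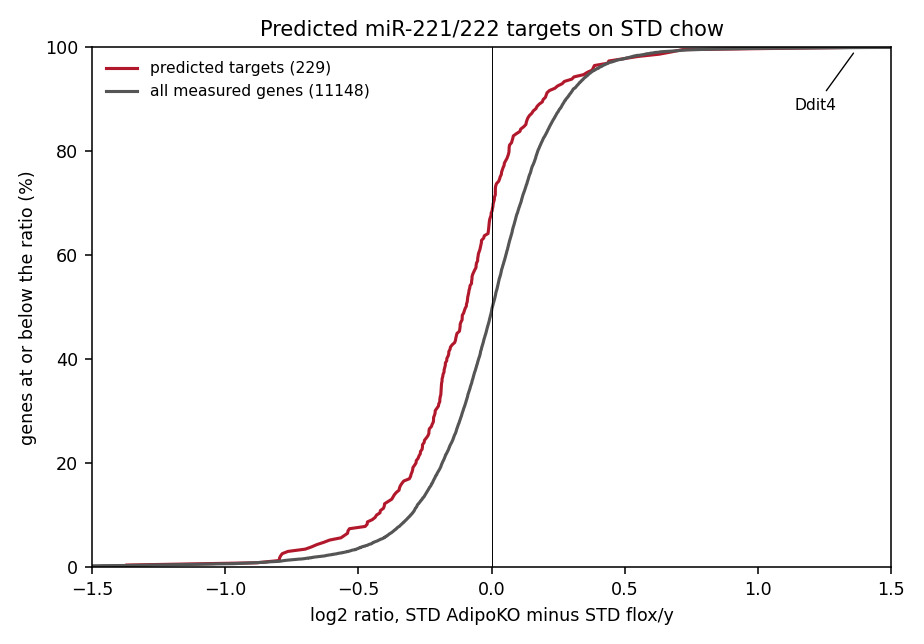
Share of genes (%, vertical axis) at or below a given log2 ratio of STD AdipoKO minus STD flox/y (horizontal axis, drawn from -1.5 to 1.5) for 229 measured predicted targets (red) and 11148 measured genes (grey), 1 array per group. The red curve lies to the left of the grey one over most of the range, with medians of -0.09 and 0.00, and Ddit4 is its last point at 1.37.

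The 3 beside Ddit4 were Fam214a, Acvr2b and Cxcl12. Fam214a was 1.64-fold higher, at 10.28 in STD AdipoKO and 9.57 in STD flox/y. Acvr2b, an activin receptor, was at 6.02 in STD AdipoKO and below background at 5.35 in STD flox/y, so it is shown to be higher only by at least 1.08-fold. The predicted targets that were lower were led by Fos (2.58-fold), which is also on the immediate early list. After it came Mier3 (7.78 in STD AdipoKO, 8.66 in STD flox/y), the translational regulator Cpeb4 (8.96 in STD AdipoKO, 9.76 in STD flox/y), the mRNA decay factor Zfp36l2 (9.07 in STD AdipoKO, 9.86 in STD flox/y) and Mylip, the ubiquitin ligase of the LDL receptor (8.46 in STD AdipoKO, 9.26 in STD flox/y). The 7 others, with ratios between -0.79 and -0.61, were Midn, the 14-3-3 protein Ywhag, Cdkn1c, Pdcd10, the interferon regulator Irf2, the chromatin remodeller Smarca5 and Tiparp. Tiparp was short of 1.5-fold by the mean of its probe sets, with -0.35. Ywhag was lower by all 3 of its probe sets.

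Targets of these microRNAs taken from the literature, a list that holds Ddit4, were also mostly below 0. Of 20 measured, 6 had a ratio above 0 (30%, against 50.6% of all measured genes), and the median was -0.09. At 1.5-fold 1 was higher, Ddit4 (5%, against 1.22% of all). The study had chosen Ddit4 from these arrays for being higher in AdipoKO, so this share is not a separate finding. Lower were 3, Pik3r1, Cdkn1c and Mdm2 (15%, against 2.57%). Cdkn1b, the cell cycle inhibitor p27 and a well-known target in tumour cells, was at 7.14 in STD AdipoKO and 7.22 in STD flox/y. Mdm2, the ubiquitin ligase of p53, was 1.54-fold lower (7.73 in STD AdipoKO, 8.35 in STD flox/y). Kit, a target in endothelium, was at 6.97 in STD AdipoKO and 6.52 in STD flox/y.

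No measured gene near the deleted locus, or near the gene that drives Cre, differed by 1.5-fold. Within 5 megabases of Mir221 on the X chromosome 16 genes were measured, with ratios between -0.49 and 0.26 and a median of 0.06. Within 1 megabase of Adipoq on chromosome 16, from which the transgene takes its regulatory sequence, 10 genes were measured, with ratios between -0.39 and 0.44 and a median of 0.09. The highest of these was Ahsg, which encodes the liver glycoprotein fetuin-A and is a hepatocyte marker, at 6.90 in STD AdipoKO and 6.46 in STD flox/y.

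Set beside the HFHS arrays, most of the lower genes had a ratio of the other sign there. Of the 75 genes at least 2-fold lower in STD AdipoKO, 62 had a ratio above 0 on HFHS chow (82.7%, against 49.3% of all measured genes), and 6 were at least 2-fold lower there too (8.0%, against 0.691% of all measured genes). Of the 23 higher genes, 11 had a ratio above 0 on HFHS chow and 1, Mid1, was at least 2-fold higher there (4.35%, against 0.368%). In 64 of the 75 lower genes (85.3%) STD flox/y was the highest of the 4 arrays, and in 41 STD AdipoKO was the lowest. Part of this follows from how the genes were chosen, since of all measured genes with a ratio below 0 STD flox/y was the highest in 59.6% and STD AdipoKO the lowest in 40.2%. Of the 75, 25 belonged to the immediate early, heat shock or cytokine lists, which leaves 50 lower genes without them. Among genes read by 2 or more measured probe sets (347), the ratios of these differed by a median of 0.18, and of 7 genes with a probe set past 2-fold, 4 had the same sign throughout and 1 was past 2-fold by all. This spread lies within the arrays and holds no difference between mice.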

How the data were processed

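Total RNA of epididymal fat was extracted with Trizol, labelled with biotin (GeneChip WT PLUS kit) and hybridised to GeneChip Mouse Gene 2.0 ST arrays, 1 mouse per array. For each of the 4 arrays, normalized log2 signals of 41345 probe sets were deposited by the authors. How they were normalized was not given in the sources used here. Arrays have no read depth; the number of mice and the background limit the precision. The background of each array was its negative control average, read from the heads of the study's supplementary tables. Those tables also hold fold changes, which were not used. Gene symbols came from the platform annotation: 23521 probe sets had 1 symbol, 1820 several and 16004 none. The brightest probe set over the 4 arrays stood for each gene.

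For each gene the log2 value of STD AdipoKO minus that of STD flox/y was computed (Python 3.11.15, numpy 2.4.6, pandas 2.3.3, matplotlib 3.10.9). A fold against a value below background is given against that background, as "at least". With 1 mouse per group no test was made. The counting steps were tested on simulated data. Members of 39 gene lists were described by counts and medians. Named were the 15 largest increases and 15 largest decreases (predicted genes, unnamed transcripts and receptor or immunoglobulin segments left out), up to 4 members of each list with the largest difference, predicted targets past 1.5-fold, and Ddit4, Mir221, Mir222, Adipoq, Lep and Pparg. Other genes named in the text were chosen after their values were seen. The lists and the comparison were chosen with earlier results of these data known. Alternatives were quantile normalization, centring of each array, other filters on low values, the mean of all probe sets, and counts without certain lists.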

Additional observations from a re-analysis of the deposited data

Results flagged for a closer look

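Some genes had measured ratios of at least 2-fold between AdipoKO and flox/y on both chows, in opposite directions. With 1 mouse per group this difference between the chows was not tested. Of these genes, 9 were lower in AdipoKO on STD chow and higher on HFHS chow, and 3 the reverse, of which Alb alone passed 2-fold on both chows once values below background were raised to it. The log2 ratio of AdipoKO over flox/y for Egr1 was -3.51 on STD chow and 1.42 on HFHS chow, and for Fosb, also an immediate early gene, it was -1.48 and 1.5. Ier3 had -2.51 on STD chow and 1.37 on HFHS chow. For the chemokine Ccl2 the ratio was -1.71 on STD chow and 1.15 on HFHS chow, and for Il1r1, the interleukin-1 receptor, -1.11 and 1.40. Tnfrsf12a, the TWEAK receptor, had -1.5 on STD chow and 1.96 on HFHS chow. Sdc4, a cell surface proteoglycan, had -1.47 and 1.79, B4galt1, a galactosyltransferase, -1.47 and 1.45, and Aldh1a3, which makes retinoic acid, -1.04 and 1.26. The reverse was seen for the liver gene Alb, with 1.14 on STD chow and -4.04 on HFHS chow. The measured ratios of Mup20 were 1.30 and -6.22 and those of the iron exporter Slc40a1 1.14 and -1.49, but both genes were below background in STD flox/y and in HFHS AdipoKO. Against the background, Slc40a1 was at least 2.13-fold higher on STD chow and at least 1.67-fold lower on HFHS chow, and Mup20 was at least 38.2-fold lower on HFHS chow, with no fold on STD chow. The HFHS flox/y array was the one with the highest summed hepatocyte signal of the 4.

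Probe sets without a single gene name enter no comparison above. Of 4967 such measured probe sets with no symbol in the annotation, 29 were at least 2-fold higher in STD AdipoKO (0.584%) and 70 at least 2-fold lower (1.41%). Of 826 with several symbols, 1 was at least 2-fold higher (0.121%) and 9 were lower (1.09%). The shares of measured genes with 1 symbol were 0.206% and 0.673%.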

How the results depend on the processing

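The counts of genes past 2-fold and 1.5-fold stayed within 1.5 times of the reported ones under quantile normalization, centring of each array, stricter filters and the mean of all probe sets. The exception was the count of genes at least 1.5-fold higher, which was 258 and not 136 with no filter on low values. Genes at least 2-fold lower ranged from 50 without the immediate early, heat shock and cytokine lists, a setting chosen after seeing the data, to 90 with no filter, and genes at least 2-fold higher from 17 with both STD arrays above background to 32 with no filter. With values below background raised to it, also chosen after seeing the data, 20 genes were higher and 73 lower by 2-fold. The median ratio of all measured genes was 0.04 under quantile normalization. Predicted targets then had a median of -0.04. Taking the mean of all probe sets moved 6 named genes by more than 0.18: Mid1 to 1.52, Cish to -1.99, Chka to -1.79, Socs3 to -1.48, Gpd1 to -0.50 and Tiparp to -0.35, of which the last 2, and Gpat3 at -0.48, were then short of 1.5-fold. With no filter the median of cytokines and chemokines was -0.06. Leaving out a replicate was not possible, since each group has 1 array. No paired analysis was possible because each group has 1 array. The position of a value against the background limits what can be read from low genes.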
